A study of Mus musculus with 11 samples.

Results

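Gene expression in the early proximal tubule, the first segment of the nephron after the glomerulus, was compared with that in the ureteral smooth muscle, the muscle coat of the tube that carries urine from the kidney to the bladder. The comparison rests on 3 arrays labelled early proximal tubule and 3 labelled ureteral smooth muscle, out of 11 arrays in the series, and on 13615 named genes, out of 18193 that the arrays read with an unambiguous symbol. A gene was included where its brightest probe set lay above the array median in at least 2 arrays. All samples came from wild-type mice of CD-1, an outbred stock, at E15.5, an embryonic day (Theiler stage 23), and the labels name no transgene or treatment. About 50 sections of 5 kidneys, cut by laser capture microdissection, were pooled for each sample, and the RNA was amplified in 2 rounds before hybridisation to a one-colour Affymetrix array. Sex was given as unknown, and nothing states whether pools shared fetuses, so the p-values measure the spread between pools, which may be partly technical. In bulk tissue of this kind, fewer cells of a type and less RNA per cell cannot be told apart.

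The proximal tubule reclaims most of the filtered water, sodium, glucose, amino acids and phosphate. It does so with carriers in an apical brush border, with receptors that take up filtered protein, and with basolateral carriers and a sodium pump, and it also secretes drugs and organic ions and makes glucose. The muscle of the ureter arises from mesenchyme around the ureteric epithelium, which sends Hedgehog and Wnt signals to it. Serum response factor and its partner myocardin switch on the actins, myosins and regulators of contraction, and the mature coat moves urine by peristalsis.

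Values are given as deposited signal, an intensity in arbitrary units, for replicates 1, 2 and 3 of each compartment. Differences are given as log2 fold changes of signal + 55, tubule minus muscle, with the standard error after ±, so folds of dim genes are understated, and every "higher by" or "lower, at" gives a value on this log2 scale. Probe sets differ in brightness, so the level of 1 gene was not set against that of another, except within lists. Sums of signal over a list give the most weight to bright probe sets. A gene was called where limma's moderated test gave a Benjamini-Hochberg adjusted p under 0.05 over all 13615 genes and the log2 fold change was 1 or more in size.

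Of the 13615 genes, 2771 (20.4%) were called, 1674 of them (12.3%) higher and 1097 (8.06%) lower in proximal tubule. The median log2 fold change was 2.25 among the genes called higher and -2.13 among those called lower, against 0.09 over all genes tested. A log2 fold change of 3 or more was seen in 479 genes called higher, and of -3 or less in 254 called lower. In 5154 genes (37.9%) the 3 tubule arrays did not overlap with the 3 muscle arrays, and 2738 of the called genes were among them. Lack of overlap in a called gene, as stated for many genes below, thus adds little to its call. The last genes to be called were Zfp691, Xrn2 and Jtb at an adjusted p of 0.0498, and the next, Bscl2, stood at 0.05. The same fit called 795 genes (5.84%) between tubule and cortical collecting duct and 1560 (11.5%) between tubule and urothelium. Between muscle and cortical collecting duct it called 1126 (8.27%), and between muscle and urothelium 1084 (7.96%). All 4 comparisons share arrays with this one, and the collecting duct has 2 arrays, the urothelium 3.

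Across genes, which are no independent replicates, the correlation ranged from 0.888 to 0.933 among the tubule arrays, from 0.906 to 0.924 among the muscle arrays and from 0.714 to 0.768 between them. The ratio of the 3' to the 5' Gapdh control signal was 10.5, 17.5 and 18.2 in tubule and 6.79, 13.5 and 13.7 in muscle. The signal of the X-linked transcript Xist was 141371, 90909 and 165102 in tubule, against 172, 429 and 95234 in muscle. It was low in 2 muscle arrays and high in the other 4 arrays, so the pools may differ in sex between the tissues, and the part of sex in the differences of other genes was not tested. Without the genes of chromosomes X and Y, 2688 of 13171 genes were called. The labels of the arrays carry a date-like string of unstated meaning, by which the 11 arrays fall into 4 label tags. Only 1 tag holds both compartments, namely tubule replicate 1 and muscle replicate 2. Within that tag, 2769 of the 2771 called genes differed in the same direction, 2399 of them by a log2 difference of at least 1. Both arrays are among those that made the calls. In 2738 called genes the tissues did not overlap, so the direction within the tag was fixed in advance for these, and its agreement is no separate check. The median absolute log2 difference of the called genes was 1.99 there, against 2.19 over all arrays. With the tag as a fixed block, named the tag block here, 710 genes were called, 688 of them among the 2771, and 2770 of the 2771 kept their direction.

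**Figure D1:**
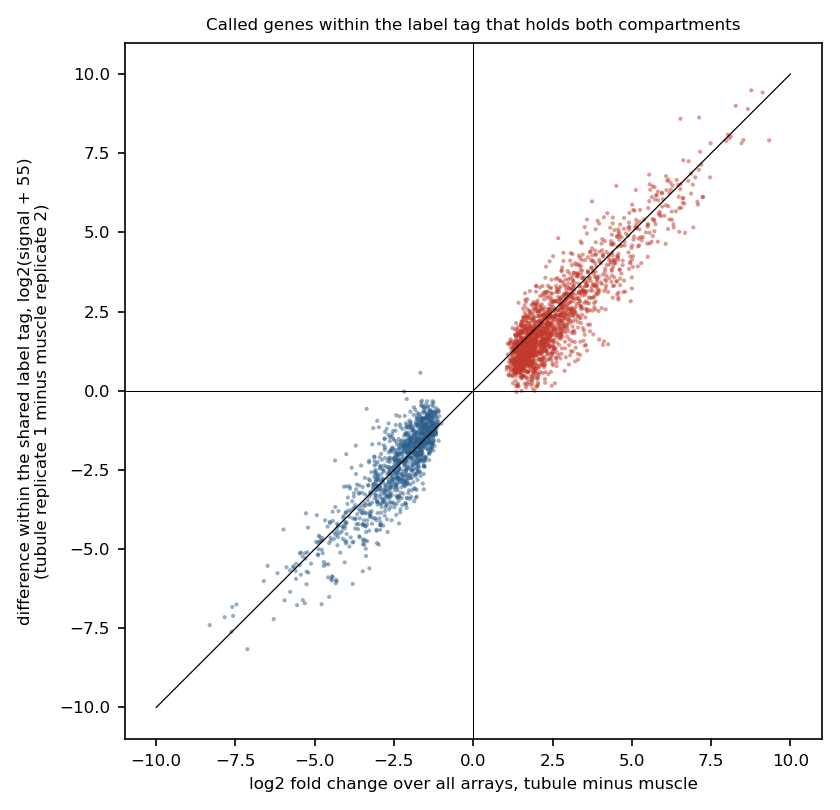
Log2 difference between tubule replicate 1 and muscle replicate 2, which share a label tag (vertical axis), against the log2 fold change over all arrays (horizontal axis) for the 2771 called genes, red for higher and blue for lower in tubule; the line marks equality. All but 2 points lie in the lower left or upper right quadrant. Both arrays also enter the horizontal axis, so the 2 axes are not independent.

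The labelled tissues were checked against markers of each. Of 9 measured proximal tubule markers, 8 were called higher in tubule and Aqp1 was not called. Cubn, which forms the cubilin receptor for filtered vitamin carriers and proteins, had signals of 14214, 23623 and 13432 in tubule, against 194, 281 and 86.3 in muscle (6.19 ± 0.48, adjusted p = 3.23e-06). Slc5a2, the glucose carrier SGLT2, had 3810.2, 9465 and 6428 in tubule, against 210.0, 258 and 407 in muscle (4.2 ± 0.47). The lowest tubule array of each gene was above its highest muscle array. Aqp1, the water channel of the mature proximal tubule, had 1094, 2068 and 3218 in tubule, against 1473, 1944 and 1839 in muscle (adjusted p = 0.887), and the groups overlapped.

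Of the 10 smooth muscle markers, 9 were called lower in tubule and Des was not called. Acta2, the vascular and visceral smooth muscle actin, had signals of 3606, 2389 and 5383 in tubule, against 203038, 137449 and 125896 in muscle (-5.38 ± 0.56, adjusted p = 2.25e-05). Smtn and Lmod1, an actin-binding protein and an actin filament nucleator of muscle, were lower, at -1.45 ± 0.43 and -2.98 ± 0.62. The intermediate filament gene Des had 250.2, 39.1 and 519.6 in tubule, against 566, 249 and 295 in muscle (adjusted p = 0.454), with overlapping groups. Smtn and Lmod1 lost their calls under the tag block.

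**Figure D2:**
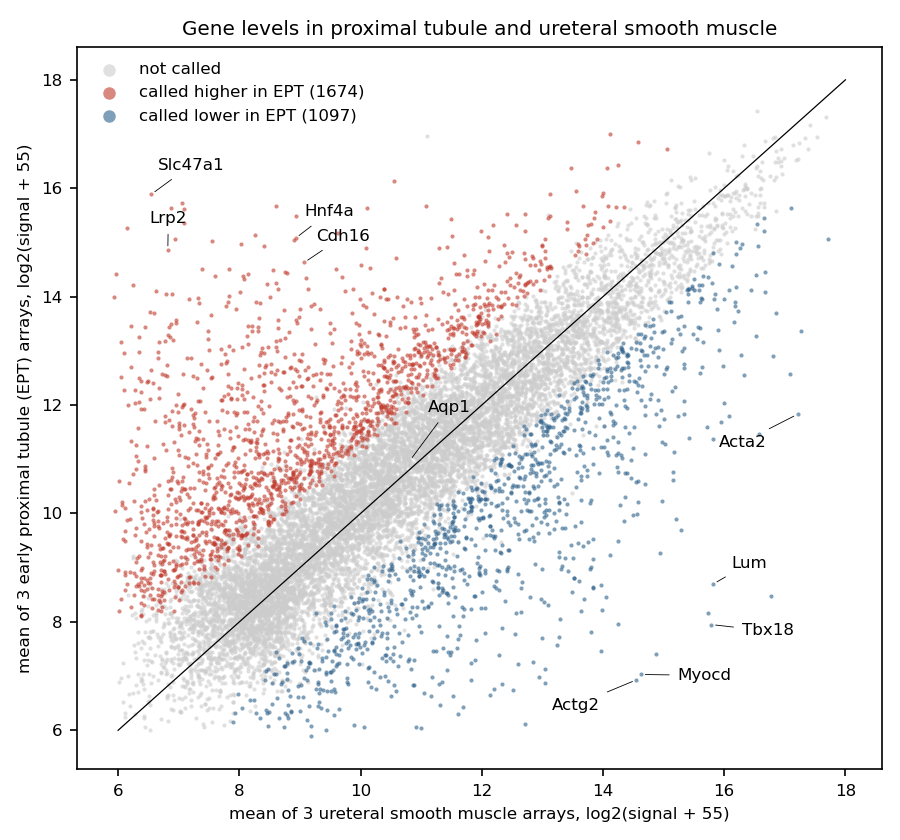
Mean level of each of the 13615 genes in 3 early proximal tubule arrays (EPT, vertical axis) and in 3 ureteral smooth muscle arrays (horizontal axis), both as log2(signal + 55), with the 1674 genes called higher in red and the 1097 called lower in blue. Brush border and carrier genes lie in the upper left, contractile and matrix genes in the lower right, and Aqp1 lies near the line of equality.

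The 15 named genes with the highest log2 fold changes were carriers, peptidases, receptors and enzymes of the tubule, plus genes that belong to no list used here. Only called genes without overlap between the groups were eligible, so their separation was fixed by the choice. Slc47a1, the MATE1 exporter that passes organic cations into the urine, had signals of 51950.4, 70749 and 60213 in tubule, against 7.85, 161 and 5.86 in muscle (9.33 ± 0.62, adjusted p = 1.74e-06). Lrp2, which encodes the endocytic receptor megalin, had 21579, 31776 and 37762 in tubule, against 222, 24.2 and 11.2 in muscle (8.03 ± 0.92). Hdc, the enzyme that makes histamine, had 52469, 50551 and 50533 in tubule, against 235, 18.2 and 21.2 in muscle (8.77 ± 0.91). In all 3 genes the lowest tubule array was far above the highest muscle array, and a single muscle array was brighter than the other two. Dpp4, a brush border peptidase, followed the same pattern, with 37148, 43746 and 45996 in tubule, against 9.50, 17.6 and 479 in muscle (8.28 ± 1.14). Of the genes in no list, Dcdc2a, a doublecortin-domain gene, had 52021, 52093 and 22592 in tubule, against 13.6, 20.9 and 13 in muscle (9.13 ± 0.76). Tinag, a protein of the tubular basement membrane, had 20735, 18975 and 13658 in tubule, against 37.0, 37.2 and 56.1 in muscle (7.49 ± 0.45), and its adjusted p was 1.53e-06. The membrane protein genes Tmem25 and Tmem174 were higher by 7.47 ± 0.56 and 7.25 ± 0.68.

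The 15 named genes with the lowest log2 fold changes held contractile proteins, the master regulators of smooth muscle and ureteral mesenchyme, matrix genes and signalling genes. Car3, carbonic anhydrase III, had signals of 599, 355 and 111 in tubule, against 104316, 110596 and 123450.0 in muscle (-8.31 ± 0.57, adjusted p = 1.74e-06). Tbx18, the transcription factor of the ureteral mesenchyme, had 419, 246 and 50.1 in tubule, against 46844, 67444 and 57069.8 in muscle (-7.84 ± 0.59). Myocd, which encodes the serum response factor partner myocardin, had 319.7, 27.3 and 17.2 in tubule, against 14332, 42569 and 26538 in muscle (-7.60 ± 0.89). All 3 genes were bright in every muscle array. The same rule of choice applied, so the groups are apart by selection. In no list were Pou3f1, a POU-domain transcription factor, with 3.80, 2.07 and 44.7 in tubule, against 5641, 3732 and 14237 in muscle (-6.61 ± 0.70), and Aard, with 35.0, 8.48 and 306 in tubule, against 7874, 8782 and 6926 in muscle (-5.95 ± 0.68). Tnnt2, which encodes the troponin T of heart muscle, had 104, 1.13 and 128 in tubule, against 9023, 8571 and 7791 in muscle (-6.17 ± 0.62).

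**Figure D3:**
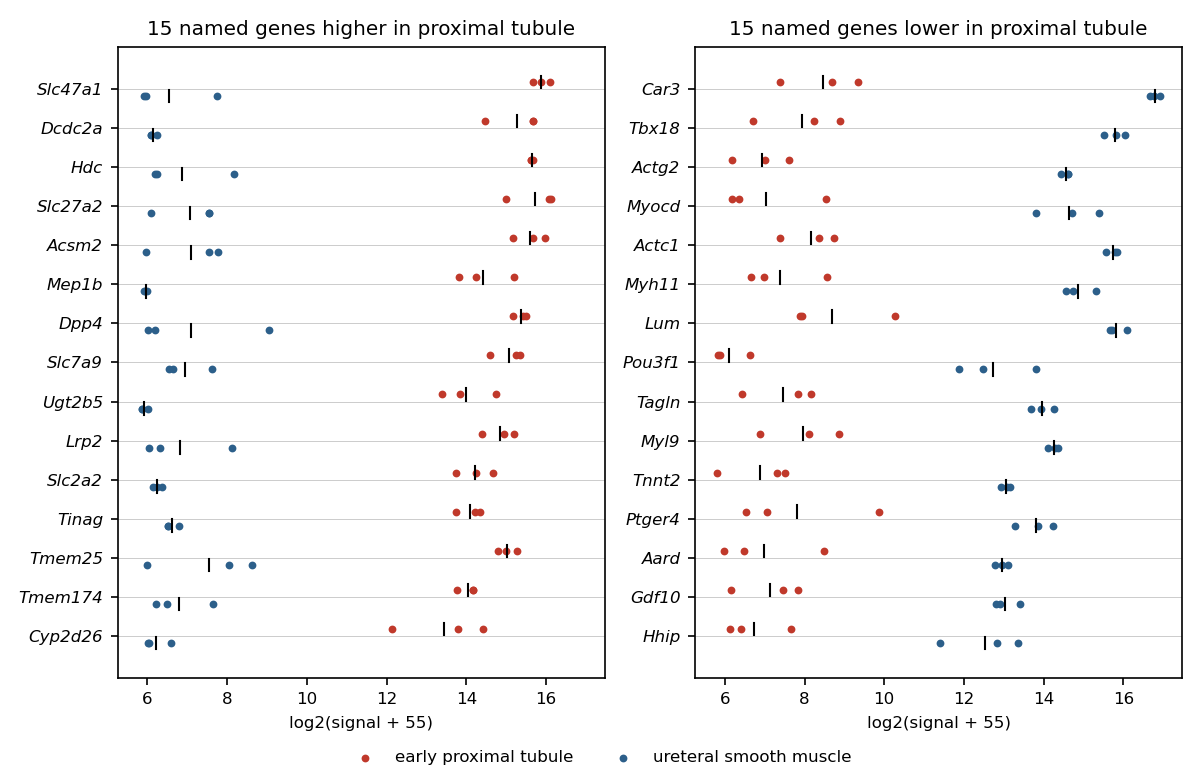
Level of the 15 named genes highest (left panel) and the 15 lowest (right panel) in tubule against muscle, as log2(signal + 55); each point is 1 array, red for early proximal tubule and blue for ureteral smooth muscle, and black ticks are means of 3. The 30 genes were chosen among called genes whose red and blue points are apart.

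Apical carriers, which bring solutes from the urine into the cell, were higher in tubule in 24 of 29 measured members (82.8%, against 12.3% of all genes tested), and 0 were lower. The median log2 fold change of the list was 3.56. Slc7a9 and Slc3a1, the light and heavy chain of the cystine carrier, were both called. Slc7a9 had signals of 24516, 38778 and 41683 in tubule, against 44.4, 38.7 and 142 in muscle (8.12 ± 0.67), and Slc3a1 had 5654, 13081 and 9500.4 in tubule, against 239, 195 and 248 in muscle (4.99 ± 0.47). Slc34a1, the main sodium-phosphate carrier of this segment, had 9108, 15861 and 8125 in tubule, against 25.6, 128 and 337 in muscle (5.89 ± 0.58). Tubule replicate 2 was the highest array for Slc3a1 and Slc34a1 and replicate 3 for Slc7a9, and none of the 3 overlapped with muscle. Slc15a2, the peptide carrier PEPT2, had 54258, 73883 and 91638 in tubule, against 726, 2101 and 2008 in muscle (5.57 ± 0.58). The sulfate carrier Slc13a1, the organic anion and phosphate carrier Slc17a1 and the amino acid carrier Slc6a18 were higher by 6.39 ± 0.59, 6.78 ± 0.54 and 5.78 ± 0.56. Over the list, tubule replicate 1 was the lowest tubule array for 18 of the 29 members and replicate 2 the highest for 16. Under the tag block 13 members were called higher and 0 lower.

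Basolateral carriers pass solutes between the cell and the blood. They were higher in 11 of 18 measured members (61.1%, against 12.3% of all genes tested) and lower in 0. The median log2 fold change was 2.95. Slc2a2, the glucose carrier GLUT2, had signals of 19421, 25940.4 and 13689.9 in tubule, against 20.2, 27.0 and 16 in muscle (7.97 ± 1.04, adjusted p = 0.000129). The organic cation carrier Slc22a2 had 4569, 12503 and 5295 in tubule, against 64.4, 45.6 and 60.7 in muscle (5.92 ± 0.53), and the organic anion carrier Slc22a6 had 2172, 4668 and 9054 in tubule, against 255, 35.4 and 299 in muscle (4.41 ± 0.61). The groups were apart in all 3 genes, and the tubule replicates of Slc22a6 differed among themselves by more than those of Slc2a2. Fxyd2 and Atp1b1, the gamma and beta 1 subunits of the sodium pump, were higher by 6.66 ± 0.77 and 2.89 ± 0.40. Atp1b1 had 78492, 69799 and 110240.0 in tubule, against 13246, 15825 and 6963 in muscle. The carriers Slc6a13, Slc13a3 and Slc43a2, for GABA and related compounds, dicarboxylates and neutral amino acids, were higher by 5.75 ± 0.51, 3.97 ± 0.56 and 3.05 ± 0.46. With the tag block fitted, 9 members were called higher and 0 lower, and of the genes named here Slc2a2 lost the call.

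Brush border and endocytosis genes were higher in 22 of 26 measured members (84.6%, against 12.3% of all genes tested) and lower in 0. The median log2 fold change was 4.06. Vil1, which encodes villin, the actin bundler of microvilli, had signals of 8809.7, 9361 and 9129 in tubule, against 10.6, 15.1 and 7.71 in muscle (7.11 ± 0.72, adjusted p = 1.98e-05). Slc9a3r1 and Pdzk1 encode scaffolds that hold carriers at the apical membrane. Slc9a3r1 had 53457, 56581 and 43179 in tubule, against 1209, 925 and 1039 in muscle (5.52 ± 0.39), and Pdzk1 had 16678, 29843 and 19810.3 in tubule, against 75.6, 54.8 and 453 in muscle (6.79 ± 0.54). The 3 tubule arrays of Vil1 and Slc9a3r1 lay close together, while replicate 2 was the highest for Pdzk1. Meprin subunits, which are membrane metalloproteases, were both called, with 13964, 30618 and 22286 in tubule, against 79.5, 311 and 334 in muscle for Mep1a (6.31 ± 0.58) and 14359, 37185 and 19469.6 in tubule, against 5.50, 8.91 and 6.79 in muscle for Mep1b (8.46 ± 0.87). Cdhr2, a protocadherin that links microvilli, had 3315, 5991 and 5582 in tubule, against 58.8, 17 and 14.6 in muscle (5.87 ± 0.59), and Pdzk1ip1, a small membrane protein that binds Pdzk1, was higher by 5.24 ± 0.56. In the fit with the tag block 14 members were called higher and 0 lower.

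Nephron epithelial transcription factors were higher in 17 of 24 measured members (70.8%, against 12.3% of all genes tested) and lower in 0. The median log2 fold change was 2.67. Hnf4a, a nuclear receptor of proximal tubule, liver and gut epithelium, had signals of 38942, 37589 and 28464 in tubule, against 457, 328 and 542 in muscle (6.15 ± 0.87, adjusted p = 0.000225). Esrrg, an orphan nuclear receptor linked to oxidative metabolism, had 29296, 34085 and 33220.2 in tubule, against 266, 766 and 13.3 in muscle (6.94 ± 0.69). Pou3f3, a POU-domain factor of the nephron, had 18957, 21347 and 14537 in tubule, against 509.6, 452 and 165 in muscle (5.51 ± 0.45). The lowest tubule array of each of these 3 genes was above its highest muscle array. Tfcp2l1, Emx2 and Sall1 were higher by 5.01 ± 0.54, 4.54 ± 0.50 and 5.12 ± 0.70. Pax8 and Irx3, a paired-box factor of the nephron lineage and a homeobox factor of the tubule, were higher by 3.01 ± 0.41 and 3.33 ± 0.60. Lhx1, a homeobox factor of the early nephron chosen after its values were seen, had 927, 909.9 and 849 in tubule, against 21.5, 29.4 and 284 in muscle. Its arrays did not overlap, but the adjusted p was 0.0923 (2.87 ± 1.13). Of these factors, Tfcp2l1, Emx2 and Pou3f3 averaged 12.81, 12.36 and 14.14 in tubule and 13.9, 12.52 and 14.92 in cortical collecting duct, against 7.8, 7.82 and 8.64 in muscle, as means of log2(signal + 55). After the tag block 6 members were called higher and 0 lower, and of the genes named here Sall1 and Irx3 lost the call.

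Promoter windows of the genes were searched for the binding motif of Hnf4a, a factor known to act on genes of the proximal tubule. A window runs from 250 bases before to 50 bases after a RefSeq gene start (GRCm38.p6), and 255 of the 350 named genes have one. The HNF4 motif was searched as CAAAGTCCA on both strands. These letters were in 0.475% of all 32851 windows, in 0.789% for genes called higher and in 0.179% for genes called lower. Those shares rest on 156, 14 and 2 windows. Apical carriers held a match in 1 of 29 windows, brush border genes in 1 of 29, amino acid and amine enzymes in 2 of 31 and detoxification enzymes in 1 of 32. The 2 windows of the amino acid and amine enzymes belong to 1 gene, Agxt2. Basolateral carriers held it in 0 of 25 windows, contractile genes in 1 of 51 and matrix genes in 0 of 36. A match is a run of letters and not a measured site. Of the 3 genes that the rule for named genes gives for this motif, 2 are shown, with the match in capitals, 5′ to 3′ on the strand of the gene. They are Slc3a1 (chr17:85028097-85028396, plus strand) and Agxt2 (chr15:10358283-10358582, plus strand), a mitochondrial aminotransferase. The matches start at -39 and -21 from the gene start, in that order.
Slc3a1: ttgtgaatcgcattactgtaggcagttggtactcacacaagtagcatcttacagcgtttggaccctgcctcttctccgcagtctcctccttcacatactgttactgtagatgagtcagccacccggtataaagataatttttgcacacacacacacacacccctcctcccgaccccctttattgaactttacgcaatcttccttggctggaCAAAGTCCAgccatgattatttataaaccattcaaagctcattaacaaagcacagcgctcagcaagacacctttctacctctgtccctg
Agxt2: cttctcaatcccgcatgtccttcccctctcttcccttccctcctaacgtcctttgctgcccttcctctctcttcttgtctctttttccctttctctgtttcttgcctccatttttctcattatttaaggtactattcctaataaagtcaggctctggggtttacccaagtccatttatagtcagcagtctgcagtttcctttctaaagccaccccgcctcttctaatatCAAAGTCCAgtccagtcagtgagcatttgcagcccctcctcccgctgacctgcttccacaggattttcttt

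Amino acid and amine enzymes were higher in 22 of 29 measured members (75.9%, against 12.3% of all genes tested). Lower was 1 member (3.45%, against 8.06%), and the median log2 fold change was 2.84. Prodh2, an enzyme of hydroxyproline breakdown, had signals of 1334, 2857 and 3609 in tubule, against 28.1, 18.5 and 25.6 in muscle (4.96 ± 0.41, adjusted p = 4.56e-06). Agxt2, whose window is printed above, had 8421, 21489 and 4455 in tubule, against 18.4, 29.0 and 160.1 in muscle (6.42 ± 0.73). Aspa, which cleaves N-acetylaspartate, had 30159.6, 51939 and 24658 in tubule, against 204, 819.7 and 429 in muscle (6.15 ± 0.63). All 3 were apart between the tissues, and the tubule replicates varied by more for Agxt2 than for the others. Glyat, Dao, Gldc and Dmgdh, enzymes of glycine conjugation, D-amino acid oxidation, glycine cleavage and dimethylglycine breakdown, were higher by 5.83 ± 0.58, 4.76 ± 0.44, 4.75 ± 0.57 and 4.64 ± 0.45. Oat, ornithine aminotransferase, was the exception, with 1962, 2226 and 2914 in tubule, against 17191, 16175 and 14849 in muscle (-2.75 ± 0.47, adjusted p = 0.000882). When the tag block was included, 13 members were called higher and 1 lower.

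Detoxification enzymes were higher in 23 of 34 measured members (67.6%, against 12.3% of all genes tested). Lower were 2 members (5.88%, against 8.06%), and the median log2 fold change was 2.37. Ugt2b5, a glucuronosyltransferase, had signals of 14619.8, 27496 and 10743 in tubule, against 3.72, 3.61 and 10.3 in muscle (8.07 ± 0.59, adjusted p = 2.55e-06). Gsta2, a glutathione transferase, had 9466, 21955 and 6560.2 in tubule, against 29.0, 34.3 and 32.7 in muscle (7 ± 0.48). Acsm2, a medium-chain acyl-CoA synthetase that takes part in glycine conjugation, had 52342, 64297 and 36799 in tubule, against 130.2, 162 and 7.42 in muscle (8.52 ± 1.00). Tubule replicate 2 was the highest tubule array for these 3 genes and for 21 of the 34 members. The cytochromes Cyp2d26 and Cyp2j5 were higher by 7.23 ± 0.84 and 5.12 ± 0.48, and the sulfotransferase Sult1d1 by 5.85 ± 0.49. Ugt2b34, Ugt2b37, Ugt8a and Acsm1 were higher by 5.73 ± 0.37, 5.99 ± 0.54, 4.88 ± 0.46 and 5.00 ± 0.53. These families have near-identical members, and Gsta2 and Ugt2b34 were read from probe sets that may also detect relatives. Lower in tubule were Gstt1, a theta-class glutathione transferase, with 27.7, 95.3 and 92.0 in tubule, against 4471, 2931 and 3515 in muscle (-4.90 ± 0.74), and the oxysterol hydroxylase Cyp7b1 (-2.36 ± 0.44). The tag block left 17 members called higher and 0 lower, and of the genes named here Gstt1 and Cyp7b1 lost the call.

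Genes of sugar metabolism and gluconeogenesis were higher in 9 of 23 measured members (39.1%, against 12.3% of all genes tested). Lower was 1 member (4.35%, against 8.06%), and the median log2 fold change was 0.90. The count of members called lower was 3 without tubule replicate 3 and 2 without muscle replicate 2. Pck1, which commits carbon to gluconeogenesis, had signals of 783, 1546 and 1069.7 in tubule, against 16.6, 10.9 and 9.74 in muscle (4.09 ± 0.40, adjusted p = 1.3e-05). Fbp1, the fructose bisphosphatase of liver and kidney, had 4398, 8668 and 4931 in tubule, against 36.1, 219.8 and 203 in muscle (4.96 ± 0.69). Fbp2, its muscle isozyme, had 3637, 3641 and 3409 in tubule, against 331, 186 and 104 in muscle (3.88 ± 0.48). Pcx, pyruvate carboxylase, was higher by 2.77 ± 0.47. The 4 gluconeogenic genes did not overlap between tissues. Ldhb, the lactate dehydrogenase subunit common in oxidative tissue, was higher by 2.38 ± 0.41, and the fructose and glycerate enzymes Tkfc and Glyctk by 1.96 ± 0.44 and 2.77 ± 0.53. Hk1, a hexokinase of glycolysis, had 675, 1005 and 574 in tubule, against 2190.1, 2653 and 2272 in muscle (-1.62 ± 0.37). Under the tag block 4 members were called higher and 0 lower, and of the genes named here Fbp1, Pcx, Glyctk and Hk1 lost the call.

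Fatty acid oxidation and peroxisome genes were higher in 9 of 35 measured members (25.7%, against 12.3% of all genes tested), and 25 were not called. The count called lower was 1 (2.86%, against 8.06%), or 2 without tubule replicate 3. The median log2 fold change was 0.78. Slc27a2, which activates and imports very long chain fatty acids, had signals of 32652, 68377 and 71311 in tubule, against 130.3, 13.6 and 133 in muscle (8.66 ± 1.09, adjusted p = 9.62e-05). Acaa1b, a thiolase of the peroxisome, had 32611, 47826 and 32549 in tubule, against 805, 300.3 and 1526 in muscle (5.56 ± 0.49), whereas Acaa2, a thiolase of mitochondria, had 2080.4, 1589 and 2539 in tubule, against 26789.8, 14691 and 21728 in muscle (-3.30 ± 0.41). The thiolase genes were thus called in opposite directions, each with its arrays apart. Ehhadh, Hacl1 and Amacr, peroxisomal enzymes, were higher by 3.76 ± 0.69, 2.98 ± 0.47 and 2.82 ± 0.42. Acadm, the medium-chain dehydrogenase of mitochondria, was higher by 2.34 ± 0.37, and the fatty acid binding protein gene Fabp3 by 3.10 ± 0.42. Of the 50 subunits of the respiratory chain and ATP synthase, 1 was called higher and 0 lower (2%, against 12.3% higher and 8.06% lower over all genes tested), with a median log2 fold change of -0.15. The member called was Cox7a1, a cytochrome oxidase subunit of heart and skeletal muscle, with 529, 339 and 503 in tubule, against 232, 24.1 and 131 in muscle (1.64 ± 0.48, adjusted p = 0.0269). It lost the call without tubule replicate 1 or 3 and without muscle replicate 2 or 3, with adjusted p-values from 0.051 to 0.114. Muscle replicate 2 was the lowest muscle array for 37 of the 50 members. With the tag block fitted, 3 fatty acid oxidation and peroxisome genes were called higher and 1 lower. Of the respiratory chain and ATP synthase genes 1 was called higher and 0 lower. Of the genes named here Ehhadh, Hacl1, Amacr and Acadm lost the call.

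Plasma protein genes were higher in 7 of 17 measured members (41.2%, against 12.3% of all genes tested) and lower in 0. The other members, out of 30 listed, lay below the filter or had no probe set with 1 symbol. Afp, alpha-fetoprotein, had signals of 54356, 62225 and 28032 in tubule, against 1022, 86.0 and 728 in muscle (6.54 ± 0.67, adjusted p = 2.15e-05). Spp2, secreted phosphoprotein 2, had 11253, 19227 and 13687 in tubule, against 139.7, 189 and 169.6 in muscle (6.03 ± 0.37), and Ambp, the precursor of alpha-1-microglobulin and bikunin, had 4656, 5226 and 6548 in tubule, against 21.9, 7.85 and 88.4 in muscle (5.95 ± 0.50). The 3 tubule arrays were bright for all 3 genes. Serpinf2, Apom and Kng1 were higher by 5.13 ± 0.62, 2.90 ± 0.44 and 2.80 ± 0.85. Serpina1b was called with overlapping arrays, at 582, 747 and 179 in tubule, against 214, 9.15 and 18.7 in muscle (2.18 ± 0.62). In the fit with the tag block 5 members were called higher and 0 lower, and of the genes named here Kng1 and Serpina1b lost the call.

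Epithelial junction and polarity genes were higher in 28 of 42 measured members (66.7%, against 12.3% of all genes tested). Lower was 1 member (2.38%, against 8.06%), and the median log2 fold change was 2.86. Cldn2, the claudin that makes proximal tight junctions leaky to cations and water, had signals of 39981, 21380.0 and 14788 in tubule, against 93.4, 46.0 and 259 in muscle (7.12 ± 0.70, adjusted p = 1.55e-05). Cdh16, the kidney cadherin, had 15838, 35696 and 28920.2 in tubule, against 621, 445 and 405 in muscle (5.56 ± 0.47). Pard6b, a subunit of the apical polarity complex, had 5890.4, 6838 and 6296 in tubule, against 162, 115 and 97.9 in muscle (5.17 ± 0.37). These were high in every tubule array and low in every muscle array. The desmosomal genes Pkp2 and Dsp were higher by 5.08 ± 0.60 and 3.91 ± 0.51, Cldn7 by 4.57 ± 0.51, the protease inhibitor gene Spint2 by 4.59 ± 0.48 and the epithelial splicing factor gene Esrp2 by 4.76 ± 0.50. Tjp1, which encodes the tight junction scaffold ZO-1, had 5878, 9684 and 8061 in tubule, against 13708, 17288 and 26111 in muscle (-1.25 ± 0.40, adjusted p = 0.0394), a call lost without any 1 of the tubule arrays, muscle replicate 2 or 3 or urothelium replicate 3. The median level of the list was 11.7 in tubule, 12.26 in cortical collecting duct and 12.27 in urothelium, against 8.91 in muscle, on the log2(signal + 55) scale. After the tag block 16 members were called higher and 0 lower, and of the genes named here Dsp and Tjp1 lost the call.

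**Figure D4:**
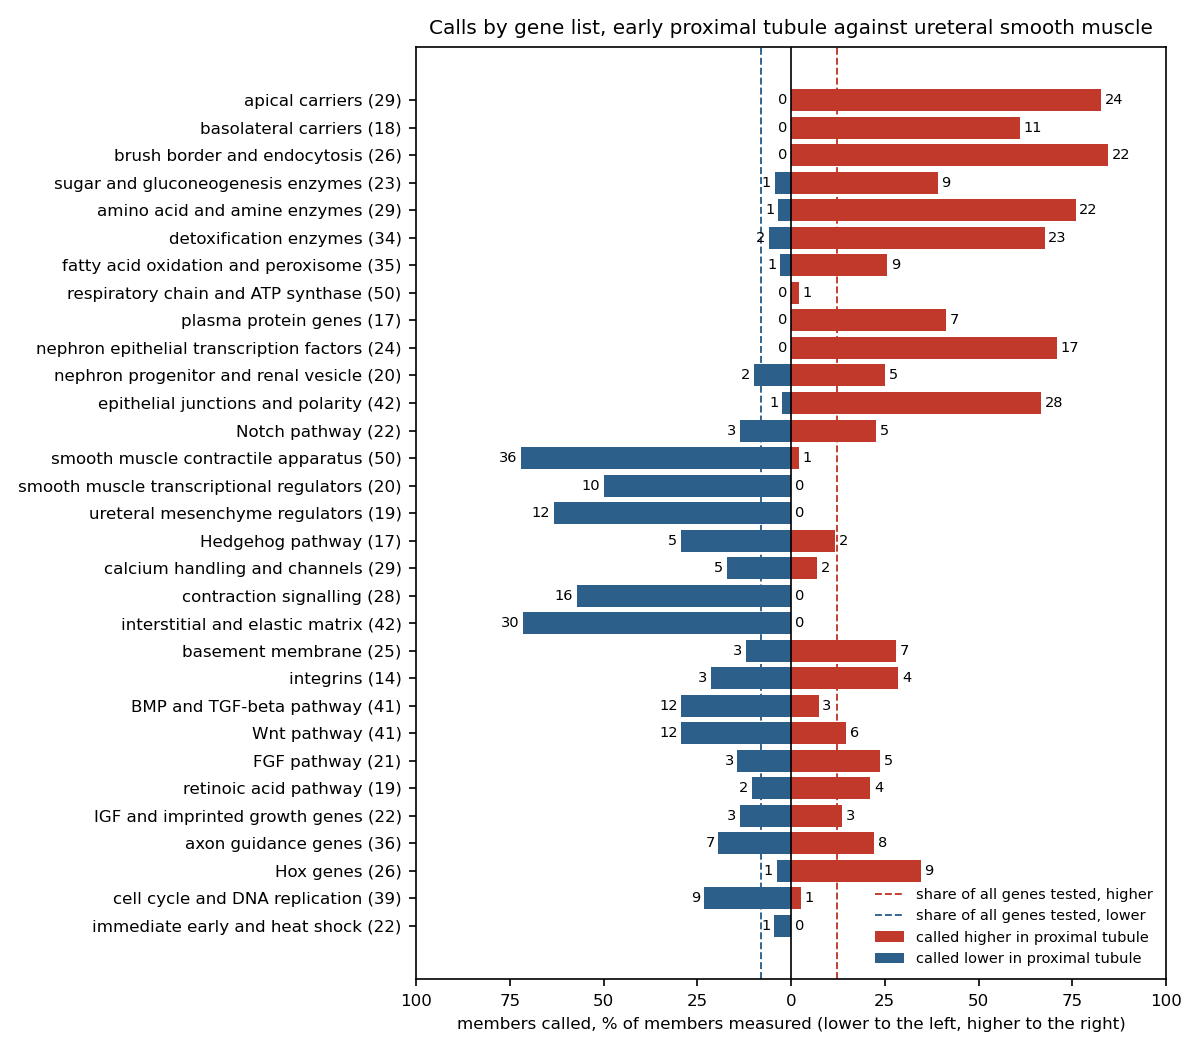
Share of the measured members of each gene list called higher (red, to the right) or lower (blue, to the left) in early proximal tubule against ureteral smooth muscle, with the number called beside each bar, the number measured in brackets and the shares of all 13615 genes as dashed lines (12.3% and 8.06%). Carrier, brush border, enzyme, transcription factor and junction lists reach to the right, and contractile, regulator, mesenchyme, signalling and matrix lists to the left.

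Contractile genes were lower in tubule in 36 of 50 measured members (72%, against 8.06% of all genes tested), and 1 was higher. The median log2 fold change was -2.58. Of the actins, Actg2, the gamma actin of smooth muscle, had signals of 73.7, 17 and 139 in tubule, against 22050.2, 25114 and 24927 in muscle (-7.63 ± 0.63, adjusted p = 4.7e-06). Actc1, the alpha actin of heart muscle, had 372, 112 and 273 in tubule, against 56280.0, 58734 and 48753 in muscle (-7.57 ± 0.63). Both were high in all 3 muscle arrays and low in all 3 tubule arrays. Of the motor genes, Myh11, the smooth muscle myosin heavy chain, had 321, 71.2 and 45.4 in tubule, against 23987, 40369 and 27293 in muscle (-7.47 ± 0.94), and Myl9, its regulatory light chain, had 63.8, 222 and 414 in tubule, against 19989.5, 17538 and 21040.2 in muscle (-6.29 ± 0.50). The actin-binding proteins transgelin and calponin showed the same order, with 231, 172 and 31.0 in tubule, against 19464, 13118 and 15582 in muscle for Tagln (-6.49 ± 0.54) and 9.98, 4.2 and 19.1 in tubule, against 1721, 1714 and 2666 in muscle for Cnn1 (-4.96 ± 0.39). Tpm2, a tropomyosin, had 1974, 2123 and 4967 in tubule, against 132348, 89286 and 78402 in muscle (-5.12 ± 0.44). Cnn2, a calponin of many cell types, and Pgm5, a protein of adhesion plaques, were lower, at -4.02 ± 0.36 and -5.67 ± 0.49. Smtnl2, a smoothelin-like gene, was the member called higher, with 3171, 4131 and 2294 in tubule, against 1510.0, 1119 and 969.8 in muscle (1.36 ± 0.41), a call lost without tubule replicate 1 or 2 or muscle replicate 2 or 3. When the tag block was included, 0 members were called higher and 23 lower, and of the genes named here Smtnl2 lost the call.

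Smooth muscle transcriptional regulators were lower in 10 of 20 measured members (50%, against 8.06% of all genes tested) and higher in 0. The median log2 fold change was -1.35. Srf, which encodes serum response factor, had signals of 1308, 1667 and 1958 in tubule, against 8107, 9423 and 8033 in muscle (-2.35 ± 0.39, adjusted p = 0.000786). Foxf1, a forkhead factor of visceral mesenchyme and a target of Hedgehog signalling, had 672, 92.5 and 589 in tubule, against 24662, 10594 and 15223 in muscle (-5.28 ± 0.70). Klf4 had 149, 346 and 71.8 in tubule, against 4878, 5421 and 8004 in muscle (-4.79 ± 0.54). None of these arrays overlapped. Hopx, Gata6, Prrx1 and Prrx2 were lower, at -5.21 ± 0.73, -3.61 ± 0.52, -3.42 ± 0.91 and -2.26 ± 0.61. The tag block left 0 members called higher and 4 lower, and of the genes named here Srf, Hopx, Gata6, Prrx1 and Prrx2 lost the call.

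The same promoter windows were searched for the CArG box, the motif that serum response factor binds, on both strands. It was in 1.63% of all windows, in 1.41% of the windows of genes called higher and in 3.77% of those of genes called lower. Of the contractile genes, 41 have a window, and the box was in 9 of their 51 windows (17.6%), belonging to 8 genes. Of these, Actc1, Myl9, Cnn2, Fhl2 and Vcl were called lower in tubule, and the other 3 were not called; Fhl2 and Vcl were named after their values were seen. Of the other genes named here, Srf, Hopx, Lef1 and Lama2, called lower, hold the box, as do Vil1, Aspa, Itgb6 and Tinag, called higher. By the rule for named genes the windows of Myl9 (chr2:156775214-156775513, plus strand), Actc1 (chr2:114052826-114053125, minus strand) and Tinag (chr9:77045732-77046031, minus strand) are shown, with the box in capitals, 5′ to 3′ on the strand of the gene. The box starts at -161, -47 and -63 from the gene start, in that order. The difference between tubule and muscle was -6.29 ± 0.50 for Myl9 and -7.57 ± 0.63 for Actc1, against 7.49 ± 0.45 for Tinag.
Myl9: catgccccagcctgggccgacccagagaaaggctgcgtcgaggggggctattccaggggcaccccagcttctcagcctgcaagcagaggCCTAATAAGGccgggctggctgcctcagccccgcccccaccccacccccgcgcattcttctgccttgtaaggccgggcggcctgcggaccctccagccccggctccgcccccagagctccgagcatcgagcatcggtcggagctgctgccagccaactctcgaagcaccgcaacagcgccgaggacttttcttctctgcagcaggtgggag
Actc1: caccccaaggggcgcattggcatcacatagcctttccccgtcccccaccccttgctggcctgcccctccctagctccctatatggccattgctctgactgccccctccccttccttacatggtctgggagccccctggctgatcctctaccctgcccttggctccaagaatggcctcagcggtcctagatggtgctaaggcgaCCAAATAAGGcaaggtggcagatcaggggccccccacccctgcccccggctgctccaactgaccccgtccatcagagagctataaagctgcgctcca
Tinag: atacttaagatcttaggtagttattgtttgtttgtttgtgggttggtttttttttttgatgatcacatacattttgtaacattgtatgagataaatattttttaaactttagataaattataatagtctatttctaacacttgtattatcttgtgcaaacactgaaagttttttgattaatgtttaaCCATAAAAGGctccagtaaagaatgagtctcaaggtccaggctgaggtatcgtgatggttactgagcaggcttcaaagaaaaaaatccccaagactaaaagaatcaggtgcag

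Regulators of the ureteral mesenchyme were listed together with the enzyme gene Car3. Of 19 measured members, 12 were lower (63.2%, against 8.06% of all genes tested) and 0 higher. The median log2 fold change was -2.16. Besides Tbx18 and Car3, Tshz3, a zinc finger factor that ureteral smooth muscle differentiation needs in the mouse, had signals of 1055, 643 and 947 in tubule, against 16037, 14662 and 8508 in muscle (-3.78 ± 0.43, adjusted p = 4.14e-05). Sfrp2, a secreted Wnt binding protein, had 15836, 7446 and 9815 in tubule, against 255462, 128520.0 and 119885 in muscle (-3.90 ± 0.43). Id4, an inhibitor of helix-loop-helix factors, had 7587, 4136 and 6852 in tubule, against 112653, 71612 and 67930.0 in muscle (-3.76 ± 0.40). The groups were apart for all 3 genes. Tbx3, Tcf21 and Sox9 were lower, at -3.20 ± 0.55, -3.19 ± 0.60 and -2.19 ± 0.43. Bmp4, the growth factor that promotes smooth muscle around the ureter in the mouse, was chosen after its values were seen and was not called, with 3186, 2959 and 2309 in tubule, against 6173, 4898 and 3058 in muscle (-0.69 ± 0.43, adjusted p = 0.304). Under the tag block 0 members were called higher and 7 lower, and of the genes named here Tbx3 and Tcf21 lost the call.

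Hedgehog pathway genes were lower in 5 of 17 measured members (29.4%, against 8.06% of all genes tested) and higher in 2 (11.8%, against 12.3%). Leaving out 1 array at a time gave 0 or 1 members called higher for all but 2 of the 11 arrays, urothelium replicates 2 and 3, with 0 for tubule replicate 2 or 3 and for muscle replicate 3. Ptch1, the receptor and a target of the pathway, had signals of 10999, 9719 and 12713 in tubule, against 27671, 79087 and 52699 in muscle (-2.13 ± 0.48, adjusted p = 0.00627). Hhip, a decoy receptor that the pathway also induces, had 149, 29.5 and 15.6 in tubule, against 2645, 10349 and 7193 in muscle (-5.78 ± 0.69). Gli2, a transcriptional effector, had 786, 1623 and 1099 in tubule, against 6102, 9576 and 10004 in muscle (-2.84 ± 0.47). Muscle replicate 1 was the lowest muscle array for all 3, and still above every tubule array. Gli3 and Gpr161, an effector and a negative regulator at the cilium, were lower, at -2.01 ± 0.66 and -1.95 ± 0.39. Gli1, a target of the pathway that was chosen after its values were seen, had 240.0, 400.5 and 414 in tubule, against 645, 787 and 1545 in muscle, without overlap and without a call (-1.3 ± 0.58, adjusted p = 0.135). Higher in tubule were the co-receptor gene Cdon (1.41 ± 0.42), for which 1 of 2 probe sets had this sign, and the kinase gene Stk36 (1.63 ± 0.54). The GLI letters GACCACCCA were in 0.253% of all windows and in 0 of the 16 windows of these pathway genes. With the tag block fitted, 0 members were called higher and 4 lower, and of the genes named here Gli3, Cdon and Stk36 lost the call.

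Genes that signal contraction and relaxation had a median log2 fold change of -1.85. Of 28 measured members, 16 were lower (57.1%, against 8.06% of all genes tested) and 0 higher. Receptors among them were Ptger4, which binds prostaglandin E2, with signals of 874, 36.9 and 77.4 in tubule, against 14905, 19223 and 9924 in muscle (-5.99 ± 0.75, adjusted p = 8.66e-05), and Ednrb, an endothelin receptor, with 789.7, 935 and 1737 in tubule, against 17696, 21446 and 20446 in muscle (-4.12 ± 0.64). Downstream, Rgs2, which quenches G protein signals, had 486, 1727 and 775 in tubule, against 24578, 33380.0 and 10758 in muscle (-4.48 ± 0.53). The cyclic GMP arm, which relaxes smooth muscle, was represented by the kinase gene Prkg1 (-3.09 ± 0.46), its partner Mrvi1 (-3.24 ± 0.43) and the phosphodiesterase gene Pde5a (-2.82 ± 0.48), all lower in tubule. Myosin phosphatase genes were lower too, with Ppp1cb, the catalytic subunit, at -2.45 ± 0.41 and its inhibitor gene Ppp1r14a at -3.29 ± 0.52. Of 29 calcium handling and channel genes, 5 were lower (17.2%, against 8.06% of all genes tested), 2 were higher (6.9%, against 12.3%) and 22 were not called. Without urothelium replicate 2 the lower count was 9, and without tubule replicate 2 or muscle replicate 1 the higher count was 1. Ano1, a calcium-gated chloride channel, had 924, 1766 and 522 in tubule, against 34237, 17253 and 20920.3 in muscle (-4.52 ± 0.50). Kcnma1 and Kcnmb1, the pore and beta subunit of a calcium-gated potassium channel, were lower, at -4.04 ± 0.46 and -2.70 ± 0.56, as were the calcium channel subunit gene Cacnb2 (-2.49 ± 0.55) and the gap junction gene Gjc1 (-1.48 ± 0.44). Higher in tubule were Trpc1, a cation channel, with 15193, 25295 and 12704 in tubule, against 2602, 538 and 953 in muscle (3.87 ± 0.74), and Ryr2, the calcium release channel of heart muscle, with 828, 2995 and 933 in tubule, against 81.0, 221 and 452 in muscle (2.38 ± 0.66). In the fit with the tag block 0 contraction signalling genes were called higher and 8 lower and 0 calcium and channel genes were called higher and 2 lower, and of the genes named here Ppp1cb, Ppp1r14a, Kcnmb1, Cacnb2, Gjc1, Trpc1 and Ryr2 lost the call.

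Interstitial and elastic matrix genes were lower in 30 of 42 measured members (71.4%, against 8.06% of all genes tested) and higher in 0. The median log2 fold change was -2.64. Lum, which encodes the collagen-binding proteoglycan lumican, had signals of 188, 183 and 1187 in tubule, against 54021, 69269.6 and 51802 in muscle (-7.12 ± 0.75, adjusted p = 2.59e-05). Dcn, decorin, had 605, 544 and 1367 in tubule, against 41543, 29033 and 51575 in muscle (-5.59 ± 0.56). Col6a3, a chain of the microfibrillar collagen VI, had 3149, 2937 and 4529 in tubule, against 77348, 67347 and 63252 in muscle (-4.29 ± 0.52). Tubule replicate 3 was the highest tubule array for these 3 genes and for 28 of the 42 members, and replicate 1 the lowest for 29. Col6a2, Col8a2 and Col12a1 were lower, at -4.00 ± 0.50, -4.76 ± 0.60 and -3.26 ± 0.45, with the adhesion protein gene Postn at -4.15 ± 0.48 and the heparan sulfatase gene Sulf1 at -5.31 ± 0.71. Renal interstitium markers moved with this list, with 9 of 13 lower (69.2%) and 0 higher. Their median level was 9.53, 10.44 and 11.29 in the 3 tubule arrays on the log2(signal + 55) scale, and the log2 of their summed signal ran from 14.06 to 15.74 in tubule, against 17.81 to 18.27 in muscle. Pdgfra, a growth factor receptor of mesenchyme, had 2278, 5935 and 2457 in tubule, against 69629.7, 57147 and 62322 in muscle (-4.26 ± 0.68), and Snai2, a factor of mesenchymal cells, was called with overlapping arrays, at 375, 2324 and 8129 in tubule, against 38974, 7991 and 37059.5 in muscle (-3.48 ± 1.03). How far interstitial cells in the cut tissue contribute to the matrix differences was not tested. After the tag block 0 matrix genes were called higher and 16 lower and 0 interstitium genes were called higher and 3 lower, and of the genes named here Snai2 lost the call.

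Of 25 basement membrane genes, 7 were higher (28%, against 12.3% of all genes tested) and 3 lower (12%, against 8.06%). Lama1, the laminin alpha chain of early epithelia, had signals of 7924, 8716 and 19573 in tubule, against 142, 62.7 and 9.55 in muscle (6.60 ± 0.76, adjusted p = 4.78e-05). Lama2, the alpha chain of muscle, had 442, 689 and 1721 in tubule, against 8157, 13524 and 15216 in muscle (-3.78 ± 0.52), and Lama4, the chain of vessels and muscle, had 1454, 1081 and 4446 in tubule, against 11764, 7011 and 8185 in muscle (-2.16 ± 0.61). Lama5, the chain that succeeds Lama1 in maturing kidney epithelia, was higher by 2.11 ± 0.43, so the 4 called laminin alpha chains divided evenly between the tissues. Agrn, Npnt, Col18a1, Fras1 and Frem2 were higher by 2.77 ± 0.41, 2.76 ± 0.45, 2.30 ± 0.43, 3.97 ± 0.79 and 3.12 ± 0.42, and Nid1, which joins laminin to collagen IV, was lower, at -2.76 ± 0.68. Of 14 integrin genes, 4 were higher (28.6%) and 3 lower (21.4%), with 2 higher without tubule replicate 3 or without muscle replicate 2 or 3. Itga6 and Itga3, laminin receptor subunits, were higher by 3.23 ± 0.44 and 1.52 ± 0.42, and Itgb6, an epithelial subunit, by 4.09 ± 0.73. Itga9, Itga4 and Itgb3 were lower, at -2.94 ± 0.56, -2.33 ± 0.53 and -3.23 ± 0.56. The call of Itga5 (1.09 ± 0.33) rests on 1 of 3 probe sets and turned to -0.30 with the mean of the probe sets. When the tag block was included, 2 basement membrane genes were called higher and 1 lower and 1 integrin genes were called higher and 2 lower, and of the genes named here Lama4, Lama5, Agrn, Npnt, Col18a1, Fras1, Nid1, Itga6, Itga3, Itga9 and Itga5 lost the call.

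Growth factor pathways held members called in each direction. In the BMP and TGF-beta pathway, 12 of 41 measured members were lower (29.3%, against 8.06% of all genes tested) and 3 higher (7.32%, against 12.3%). The ligand gene Bmp7, which nephron progenitors and tubules need in the mouse, had signals of 1901, 2362 and 2131 in tubule, against 148, 486 and 232 in muscle (2.79 ± 0.51, adjusted p = 0.00157), while Bmp5 had 1515, 888 and 2531 in tubule, against 42415, 43941 and 25928 in muscle (-4.54 ± 0.72). The ligand genes Tgfb2, Tgfb3 and Gdf10 were lower, at -3.99 ± 0.68, -4.45 ± 0.65 and -5.89 ± 0.64. No array of these ligands overlapped between the tissues. Among receptors and modulators, Acvr1b and Acvr2b were higher by 1.87 ± 0.42 and 1.87 ± 0.46, and Tgfbr3, Bambi and Bmper were lower, at -2.82 ± 0.46, -3.13 ± 0.39 and -4.65 ± 0.85. The tag block left 0 members called higher and 7 lower, and of the genes named here Bmp7, Tgfb2, Acvr1b, Acvr2b and Tgfbr3 lost the call.

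In the Wnt pathway, 12 of 41 were lower (29.3%, against 8.06% of all genes tested) and 6 higher (14.6%, close to the 12.3% of all genes). Frizzled receptors went both ways, with Fzd5 at 6208, 6982 and 6239.9 in tubule, against 463, 175 and 107 in muscle (4.60 ± 0.52) and Fzd7 at 8653, 11449 and 9718 in tubule, against 159002, 84804 and 61669 in muscle (-3.24 ± 0.41). Fzd6 and Fzd4 were higher by 4.02 ± 0.56 and 2.41 ± 0.53. Secreted Wnt antagonists also went both ways, with Dkk1 and Frzb higher by 2.81 ± 0.56 and 4.12 ± 0.84 and Dkk3 and Sfrp2 lower, at -4.43 ± 0.53 and -3.90 ± 0.43. Nkd1 and Nkd2, feedback inhibitors that the pathway induces, were lower, at -2.65 ± 0.45 and -2.61 ± 0.45. The ligand gene Wnt5a was higher by 3.08 ± 0.95, with 3 of 4 probe sets in that direction. Under the tag block 2 members were called higher and 8 lower, and of the genes named here Fzd4, Dkk1, Frzb and Wnt5a lost the call.

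In the FGF pathway, 5 of 21 were higher (23.8%, against 12.3% of all genes tested) and 3 lower (14.3%, against 8.06%). Fgfr4, a receptor, had signals of 8762, 14805 and 13521 in tubule, against 421, 565 and 350.5 in muscle (4.62 ± 0.50), and Kl, which encodes the FGF23 co-receptor klotho, had 9202, 7745 and 4579 in tubule, against 353, 134 and 604 in muscle (4.23 ± 0.48). Fgfr3, Fgf9 and Fgf1 were higher by 2.96 ± 0.54, 3.39 ± 0.48 and 1.62 ± 0.40. Lower were Fgf7, a mesenchymal ligand for epithelial receptors, with 309, 135 and 699 in tubule, against 2919, 6143 and 3638 in muscle (-3.45 ± 0.52), the receptor partner Flrt3 (-4.39 ± 0.37) and the intracellular Fgf13 (-3.87 ± 1.00). Retinoic acid genes were higher in 4 of 19 (21.1%) and lower in 2 (10.5%, close to the 8.06% of all genes), or in 1 without tubule replicate 2 or 3 or muscle replicate 3. The degrading enzyme gene Cyp26b1 was higher by 2.53 ± 0.42, with Dhrs3, Crabp1 and Aldh1a7 higher by 2.07 ± 0.40, 2.22 ± 0.67 and 4.68 ± 0.57. The receptor gene Rarb and the binding protein gene Crabp2 were lower, at -2.02 ± 0.61 and -2.58 ± 0.56. With the tag block fitted, 2 FGF genes were called higher and 2 lower and 2 retinoic acid genes were called higher and 0 lower, and of the genes named here Fgfr3, Fgf9, Fgf1, Fgf13, Dhrs3, Crabp1, Rarb and Crabp2 lost the call.

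Of the Notch pathway, 5 of 22 were higher (22.7%, against 12.3% of all genes tested) and 3 lower (13.6%, against 8.06%). The higher count was 2 or 3 without any 1 of the tubule arrays or without muscle replicate 1 or 2, and the lower count was 1 without tubule replicate 1 or 3 or muscle replicate 1 or 3. Dll1, a ligand that proximal nephron fate is tied to in the mouse, had signals of 9590.1, 9126 and 10160.4 in tubule, against 218, 541 and 441 in muscle (4.48 ± 0.65, adjusted p = 0.000284). The ligand gene Jag1 had 42249, 29707 and 20561 in tubule, against 9135, 8656 and 7576 in muscle (1.80 ± 0.38), and the targets Hes1 and Nrarp were higher by 1.72 ± 0.49 and 2.34 ± 0.69. The receptor gene Notch1 was higher by 1.17 ± 0.36. Rbpj, the transcription factor through which the pathway acts, went the other way, with 4443, 6911 and 7140.2 in tubule, against 33262, 32963 and 32358 in muscle (-2.44 ± 0.43, adjusted p = 0.00114), and all 3 of its probe sets were lower. Dtx1 and Dtx4, ubiquitin ligases, were lower, at -1.49 ± 0.43 and -1.20 ± 0.39. In the fit with the tag block 0 members were called higher and 1 lower, and of the genes named here Dll1, Jag1, Hes1, Nrarp, Notch1, Dtx1 and Dtx4 lost the call.

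Genes of nephron progenitors and the renal vesicle, the stages that come before the tubule, were higher in 5 of 20 (25%, against 12.3% of all genes tested) and lower in 2 (10%, close to the 8.06% of all genes). The higher count was 3 without tubule replicate 3, and the lower count was 1 without any 1 of the tubule arrays or without muscle replicate 1 or 2. Eya1, a progenitor gene, had signals of 467, 2089.8 and 3639 in tubule, against 31.8, 239.7 and 249 in muscle (3.02 ± 0.75, adjusted p = 0.0113), and tubule replicate 1 was the lowest tubule array for it. Its call was lost without tubule replicate 3 or muscle replicate 1. Papss2 was higher by 2.07 ± 0.63. Six2, which keeps progenitors undifferentiated, was chosen after its values were seen and was not called, with 395, 682 and 1810.0 in tubule, against 668, 251 and 248 in muscle (1.07 ± 0.60, adjusted p = 0.244). Its groups overlapped. Lef1 and Ccnd1, both known as Wnt targets, were lower, at -1.79 ± 0.59 and -2.38 ± 0.42. After the tag block 0 members were called higher and 1 lower, and of the genes named here Eya1, Papss2 and Ccnd1 lost the call.

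IGF and imprinted growth genes were higher in 3 of 22 and lower in 3 (13.6% each, near the 12.3% and 8.06% of all genes tested). Igf1 had signals of 1449, 4038 and 7215 in tubule, against 45736, 43669 and 28419 in muscle (-3.44 ± 0.77, adjusted p = 0.00614). The binding protein gene Igfbp1 had 5085, 8138 and 3709.9 in tubule, against 5.59, 142 and 18.8 in muscle (5.82 ± 0.84), and the RNA-binding protein gene Igf2bp1 was higher by 1.36 ± 0.42. Igfbp5 was called higher (3 ± 0.64), with 1 of 2 probe sets in that direction. The imprinted genes Ndn and Mest were lower, at -2.02 ± 0.38 and -1.83 ± 0.60. Axon guidance genes, which also steer cells outside the nervous system, were higher in 8 of 36 (22.2%) and lower in 7 (19.4%). Semaphorin genes divided by member, with Sema3b, Sema4a and Sema3d higher by 4.12 ± 0.68, 2.81 ± 0.46 and 3.37 ± 0.65 and Sema3e lower, at -2.70 ± 0.70. The netrin receptor genes Unc5c and Unc5b were lower, at -3.26 ± 0.45 and -2.12 ± 0.43, while the netrin gene Ntn4 was higher by 3.25 ± 0.66. Slit2, Plxna2, Nrp1 and Efnb2 were lower, at -2.18 ± 0.51, -2.59 ± 0.48, -2.07 ± 0.53 and -1.73 ± 0.45, and Efna1 was higher by 1.78 ± 0.38. When the tag block was included, 0 IGF and imprinted genes were called higher and 1 lower and 2 axon guidance genes were called higher and 2 lower, and of the genes named here Igfbp1, Igf2bp1, Igfbp5, Ndn, Mest, Sema3b, Sema4a, Sema3e, Slit2, Plxna2, Nrp1, Efnb2 and Efna1 lost the call.

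Hox genes, which set position along the body axis, were higher in 9 of 26 measured members (34.6%, against 12.3% of all genes tested) and lower in 1, or in 2 without tubule replicate 2 or muscle replicate 2. The genes called higher were of paralogue groups 2 to 6 and 8, and Hoxd13, the posterior-most of the called genes, was the member called lower. Hoxb4 had signals of 3625, 3297 and 3731 in tubule, against 21.0, 154 and 159 in muscle (4.58 ± 0.48, adjusted p = 2.56e-05), and Hoxb5 had 1095, 1712 and 2288 in tubule, against 24.9, 13.4 and 25.8 in muscle (4.47 ± 0.45). Hoxd13 had 127, 14.2 and 24.1 in tubule, against 1526, 3246 and 2245 in muscle (-4.52 ± 0.53). No array of these 3 genes overlapped. Hoxb2, Hoxb3, Hoxb6, Hoxc4 and Hoxc8 were higher by 2.93 ± 0.42, 3.14 ± 0.43, 2.97 ± 0.41, 3.38 ± 0.89 and 3.29 ± 0.81. Hoxb4 and Hoxb5 averaged 11.81 and 10.72 in tubule and 9.88 and 11.16 in cortical collecting duct, against 7.23 and 6.25 in muscle, as means of log2(signal + 55). The tag block left 4 members called higher and 1 lower, and of the genes named here Hoxb2, Hoxc4 and Hoxc8 lost the call.

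Cell cycle and DNA replication genes were lower in 9 of 39 measured members (23.1%, against 8.06% of all genes tested). Higher was 1 member (2.56%, against 12.3%). The median log2 fold change was -0.95, with 35 of 39 members below 0. The lower count was 3 without tubule replicate 2 and 5 without muscle replicate 1 or 3. Ccnd1, a D-type cyclin that drives entry into the cycle, had signals of 8403, 4022 and 7797 in tubule, against 40461, 34488 and 27336 in muscle (-2.38 ± 0.42). Ccnd2, another D-type cyclin, had 6398, 1967 and 2254 in tubule, against 17260.0, 25558 and 28514 in muscle (-2.91 ± 0.71). Pcna, the replication clamp, had 10405, 7173 and 8079 in tubule, against 30476, 31683 and 26562 in muscle (-1.80 ± 0.40). None of these overlapped. E2f1, Ccne1 and Ccna2 were lower, at -1.47 ± 0.38, -1.43 ± 0.41 and -1.53 ± 0.41, as was the cycle inhibitor gene Cdkn2c (-2.53 ± 0.40). Cdkn1a, which encodes the cycle inhibitor p21, was the member called higher, with 2218, 2858 and 2605 in tubule, against 503, 442 and 297 in muscle (2.50 ± 0.38, adjusted p = 0.000396). Mki67, a marker of all cycling cells chosen after its values were seen, was not called, with 34798, 31198 and 40935 in tubule, against 27799, 55708 and 37076 in muscle (adjusted p = 0.867). Of 22 immediate early and heat shock genes, which respond to handling of tissue, 0 were higher and 1 was lower. The share called lower was 4.55%, against 8.06% of all genes tested, of which 12.3% were higher. The gene called was Hspa1b (-1.62 ± 0.45), a call lost without tubule replicate 1 or 3 or muscle replicate 3. Under the tag block 0 members were called higher and 0 lower, and Hspa1b lost its call as well.

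Markers of other cell types were checked in both tissues. Of all genes tested, 12.3% were called higher and 8.06% lower. The share called lower was near that, at 5.88% for endothelial and for urothelial, 5.26% for collecting duct and 9.09% for podocyte markers. The share called higher was 5.26% for collecting duct, 18.2% for podocyte, 20% for loop and distal tubule and 10% for neural and glial markers. Of the erythroid and the leukocyte markers, 8 of each measured, 0 were called, and of 17 endothelial markers 1 was called, Flt1, lower, at -2.19 ± 0.55 with 1 of 3 probe sets in that direction. The log2 of the summed endothelial signal ran from 13.11 to 14.26 in tubule, against 13.88 to 14.35 in muscle. Tubule replicate 3 was the highest tubule array for 11 of the 17 endothelial, 10 of the 13 interstitium and 8 of the 11 podocyte markers. Of 17 urothelial markers 1 was called, the forkhead factor gene Foxa1, with 11.6, 12.4 and 10.5 in tubule, against 3365, 1539 and 1286 in muscle (-4.87 ± 0.47). The log2 summed signal was 11.97 to 12.44 in tubule, against 12.7 to 13.47 in muscle, for the urothelial list, 13.05 to 13.78 against 14.73 to 15.16 for collecting duct, and 15.78 to 15.98 against 15.39 to 16.08 for loop and distal tubule, in each case tubule before muscle. For podocytes it was 13.95 to 15.46 against 15.1 to 15.89, for erythroid cells 11.88 to 14.34 against 13.51 to 14.09, for leukocytes 11.98 to 12.91 against 11.21 to 11.55, and for neural and glial cells 13.45 to 14.49 against 11.81 to 12.12, in the same order of tissues. Single genes, with signals given below, made most of 2 of these sums, namely Gata2 for collecting duct in muscle and Erbb3 for neural and glial cells in tubule. The median log2 fold change was 0.6 for the collecting duct list, with 15 of 19 members above 0. For the neural and glial list it was -0.3, with 6 of 10 members below 0. The part of neighbouring cells in the results was not tested. Of 19 collecting duct markers, Elf5 was higher (2.04 ± 0.68) and Gata2, a zinc finger factor, was lower, with 1619, 2538 and 2315 in tubule, against 28836, 22201 and 28673 in muscle (-3.60 ± 0.42). Sostdc1 and Cldn16, from the list of loop and distal tubule genes, were higher by 3.16 ± 0.48 and 2.03 ± 0.48, and Wt1 and Clic5, from the podocyte list, of which 2 members were higher and 1 lower, by 2.39 ± 0.65 and 1.63 ± 0.53. Erbb3, a neuregulin receptor from the neural and glial list, had 7985, 16535 and 19903 in tubule, against 846, 482 and 102 in muscle (5.03 ± 0.60), and averaged 14.06 in cortical collecting duct as log2(signal + 55). Under the tag block, Flt1, Elf5, Sostdc1, Cldn16, Wt1 and Clic5 lost their calls. Leaving out 1 array ended the call of Elf5 for 8 of the 11 arrays and that of Flt1 without muscle replicate 1, and the number of podocyte genes called higher was 0 without tubule replicate 2 or 3 or muscle replicate 2.

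**Figure D5:**
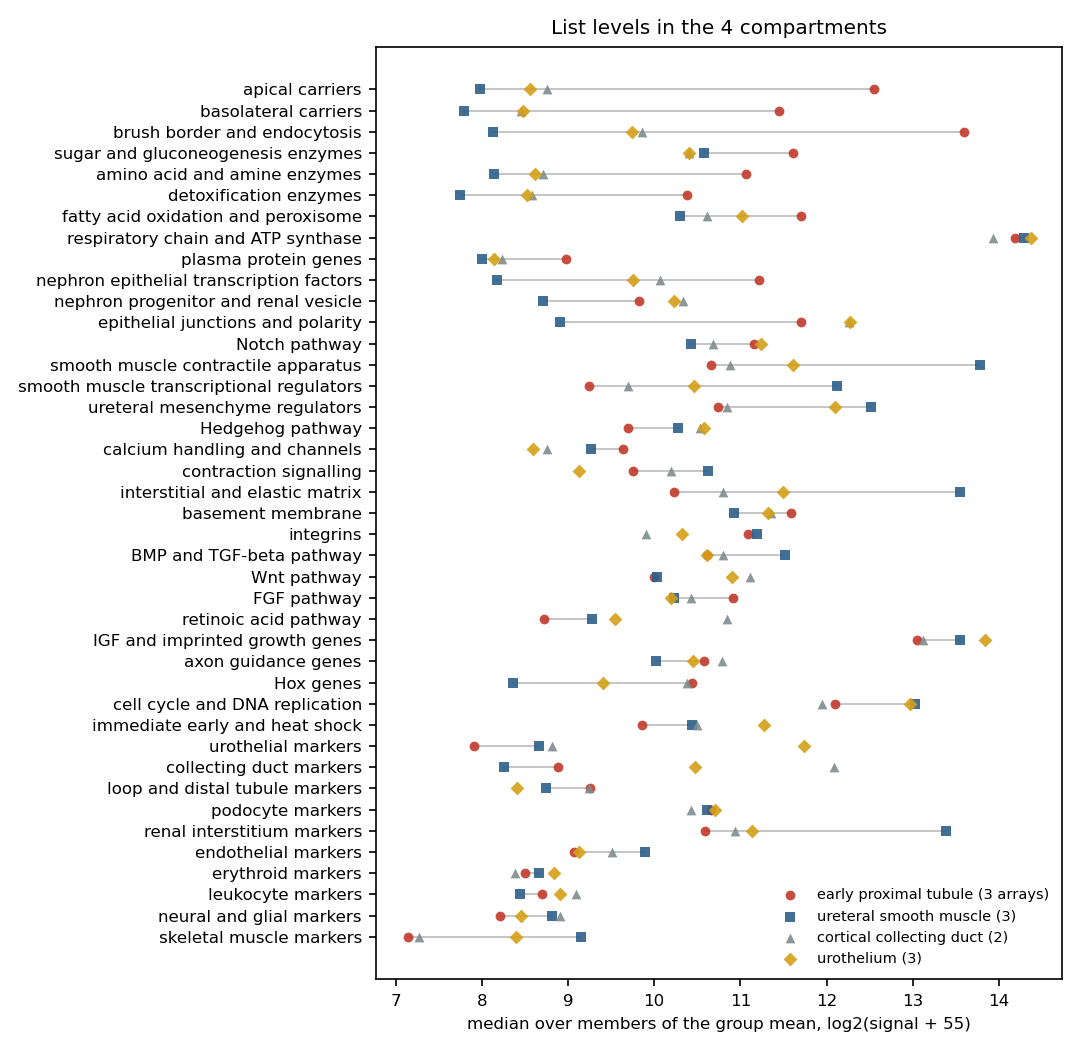
Median level of each gene list, as the median over members of the group mean of log2(signal + 55), in early proximal tubule (circles), ureteral smooth muscle (squares), cortical collecting duct (triangles) and urothelium (diamonds), to be read within a row. Carrier and brush border lists stand apart in tubule, contractile and matrix lists in muscle, and the junction list lies at 11.7 in tubule, 12.26 in collecting duct and 12.27 in urothelium, against 8.91 in muscle.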

How the data were processed

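RNA from laser-captured fetal mouse kidney and ureter was hybridised to Affymetrix arrays, 1 array per pool. The authors deposited a linear intensity per probe set, made with GCOS per the submitters' processing notes (its version was not stated) and scaled to a common trimmed mean. No detection calls were used here, so the precision of dim genes is limited by the number of arrays and by signal over background.

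Of 45101 probe sets, 34958 carried 1 gene symbol, 932 several and 9211 none; 34754 matched RefSeq (GRCm38.p6), and no symbol changed. The highest-mean probe set stood for a gene, kept if above its array's median (percentile 50) in at least 2 arrays. Values were log2(intensity + 55), so the log2 scale was computed here from the deposited intensities. Limma 3.58.1 (R 4.3.3) fitted all 11 arrays with 1 mean per compartment (7 residual degrees of freedom), and calls needed a Benjamini-Hochberg adjusted p under 0.05 and an absolute log2 fold change of 1. The procedure was tested on simulated data. Replicate numbers follow the order of the samples and pair nothing.

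The named genes are the 15 highest and 15 lowest called genes without overlap between tissues, skipping clone-like names, up to 8 members per list with the largest moderated t plus any called against the list's main direction, the markers, and at most 3 genes per promoter motif. The gene lists, the members and the comparison were chosen with earlier results of these data known. Genes with no probe set of 1 symbol, and genes without a promoter window, were not analysed here, and 1 searched motif is not reported here. Alternatives covered normalization, pseudocount (12 and 190), filters, probe set choice, variance model, arrays fitted, label tag, fold threshold, motif mismatches and each array left out; leaving out chromosomes X and Y was added after seeing the data.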

Additional observations from a re-analysis of the deposited data

How the results depend on the processing

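No paired analysis was possible because the replicate numbers only follow the order of the samples; the 1 label tag that holds both tissues gave the within-tag differences and the tag block reported above. The count of called genes (2771, with 1674 higher and 1097 lower) lay between 2285 and 3023 under the 11 settings of normalization, pseudocount, filter, probe sets, variance model, arrays fitted, the tag as a random block and the fold threshold, and 2564 called genes were shared with quantile normalization, under which 56.2% of calls were higher, against 60.4%. Without chromosomes X and Y, chosen after seeing the data, it was 2688 of 13171. Leaving out each array in turn gave 1912 (without tubule replicate 2) to 2870 called genes (without urothelium replicate 2). Counts of the gene lists that moved by over 1.5 times when an array was left out are given with the lists. Other settings moved some counts too, among them detoxification enzymes called higher, 14 with the filter at the 75th percentile, against 23. With the tag as a fixed block, 710 genes were called, 425 higher and 285 lower, with 4 residual degrees of freedom and a median standard error of 0.711, against 0.468. A test against an absolute log2 fold change of 1 (limma's treat) called 931, 600 higher and 331 lower. Of 270 named genes called, 109 lost the call with the fixed block, 73 with treat, 1 to 11 under each of 9 other settings, and 24 to 33 without 1 tubule or muscle array; none turned direction other than Itga5, at -0.3 with the mean of probe sets. Uncalled genes that turned were Aqp1 (0 with quantile normalization, -0.87 with the fixed block, -0.2 to 0.55 over arrays left out), Des (0.03 with the fixed block, -1.25 to 0.05) and Mki67 (0.11 with quantile normalization, -0.36 to 0.14). With up to 1 mismatch, HNF4 letters were in 10.3% of windows of genes called higher and 6.91% of those called lower, against 8.47% of all windows. The causes of these changes were not tested. Of 350 named genes, 84 were read from probe sets that can detect several transcripts, and of 177 with several kept probe sets 159 had all in 1 direction. Dim signals limit the folds, since no detection calls were used.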

Other observations

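Striated muscle genes were also measured. Of 14 skeletal muscle markers on the array, only 4 passed the filter, and Myod1, Myog, Myf5 and Myf6 were among those below it. Of the 4 measured, 2 were called lower in tubule and 0 were called higher (8.06% and 12.3% of all genes tested). So few members passed the filter that these counts show no enrichment of the list. The 2 that were not called had log2 fold changes above 0. Tnnt1, the troponin T of slow skeletal muscle, had signals of 15.7, 52.6 and 73.6 in tubule, against 3135, 2519 and 3083 in muscle (log2 fold change -4.90 ± 0.46). Actn3, the alpha-actinin of fast skeletal fibres, had 15.8, 4.11 and 57.0 in tubule, against 446, 661 and 1169 in muscle (-3.29 ± 0.45). Of the tubule and muscle arrays, only those of muscle read both genes above the array median. Within this comparison the filter thus kept them through the tissue where they are high. The groups were apart in both genes, as the rule of choice required for Tnnt2 and Actc1. The log2 of the summed signal of the list ran from 8.51 to 10.15 in tubule, against 11.89 to 12.18 in muscle.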
